A study of Trichoderma asperellum with 12 samples.

Results

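In Trichoderma asperellum TJ01, 63 of the 11647 genes in the deposited table were sugar transporters by annotation. A gene was taken as a member when the description of its first KEGG orthology entry named the SP (sugar porter) family, a sugar:H+ symporter, a hexose transporter or a sugar transporter, so that no expression value entered the choice. Of these, 32 were described as sugar:H+ symporters, 22 as general alpha glucoside:H+ symporters, 8 as myo-inositol transporters and 1 as a UDP-sugar transporter. The last belongs to the solute carrier family 35 and not to the SP family, and it was kept because the words of the rule cover it. A further 22 genes carried such a description only in a later KEGG entry and were not taken. All 4 groups were strain TJ01, first grown in potato dextrose medium and then moved for 24 h at 28 °C and 180 rpm to Burk broth with 0 μg/mL (control, CK), 100 μg/mL (D1), 500 μg/mL (D5) or 1000 μg/mL (D10) of dichlorvos, an organophosphorus insecticide. Each group had 3 libraries, 12 in all. The methods state only that each experiment was repeated 3 times, so the p-values measure the spread between these libraries.

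Proteins of the SP family are membrane carriers of the major facilitator superfamily, and they bring sugars and related polyols across the plasma membrane of fungi. In the yeast Saccharomyces cerevisiae hexose carriers of this family work by facilitated diffusion, the maltose permeases of the alpha glucoside class take up disaccharides together with protons, and myo-inositol carriers feed phosphoinositide synthesis. Filamentous fungi hold many copies with different affinities, and which of them are transcribed changes with the sugar supply, carbon catabolite repression and the growth phase. UDP-sugar transporters instead carry nucleotide sugars into the Golgi for glycosylation.

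The label was checked against what the rule did not use. A Gene Ontology process naming transport was listed for 32 of the 63 members, a transport function for 32 and a membrane component for 34. The closest protein in the database was a Trichoderma protein for 57 members, and it was named only as a hypothetical protein for 60. The score of the alignment to the first KEGG entry ranged from 60.1 to 1013 and was under 100 for 2 members, jgi_Trias1_130573 and jgi_Trias1_49913, whose names are therefore weak. The second of these carries a myo-inositol transporter entry, while its closest protein was named as a beta-lactamase family protein. The median score was 226.5 for the sugar:H+ symporters, 557 for the alpha glucoside symporters and 181.5 for the myo-inositol transporters. The substrate of a single member is thus not known from the table, and the class names below are those of the KEGG entry.

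Levels are given as FPKM, fragments scaled to the length of the transcript and to the mapped fragments of the library, and can be compared between genes. Summed over all genes, libraries held between 895521 and 958261 FPKM. The number of reads is not given with FPKM, and low values put the depth of control replicate 1 at 0.829 times that of control replicate 2, against 0.975 to 1.03 times in the others. Control replicate 1 stood apart. Across genes, the correlation of its log2(FPKM + 1) with the other controls was 0.895 and 0.897, against 0.970 to 0.984 for the other pairs within groups. Of the tested members 15 of 34, and 40.2% of all tested genes, differed more than 2-fold (on FPKM + 1) between control replicate 1 and the mean of the other controls, with 10 members higher in it (30.2% of all tested genes) and 5 lower (9.95%). The tests against the control are therefore given over 12 libraries and again over the 11 without control replicate 1.

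In untreated mycelium the members covered a wide range of levels, and a few of them made up most of the family's transcripts. Taking a member as on at 1 FPKM or more in each of the 3 control libraries, 30 of the 63 members (47.6%) were on, against 65.8% of all genes. At 10 FPKM or more in each control library there were 10 members, against 41.3% of all genes. By mean control level, 8 members lay at or above 100 FPKM, 6 between 10 and 100, 19 between 1 and 10, and 30 under 1. In 20 members no library of any group reached 1 FPKM. In 4 members all controls were listed at 0, namely jgi_Trias1_32762 and jgi_Trias1_84001 of the alpha glucoside class and jgi_Trias1_32239 and jgi_Trias1_81340 of the sugar:H+ class. The classes differed in how many members were on in untreated mycelium: 19 of 32 sugar:H+ symporters, 6 of 22 alpha glucoside symporters, 4 of 8 myo-inositol transporters and the UDP-sugar transporter. No alpha glucoside symporter reached 10 FPKM in each control library, while 7 sugar:H+ symporters and 3 myo-inositol transporters did. The number on was 29 at 100 μg/mL, 31 at 500 μg/mL and 32 at 1000 μg/mL. Over all 11647 genes it was 7662 in the control, and 8081, 8220 and 8507 at these doses.

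**Figure D1:**
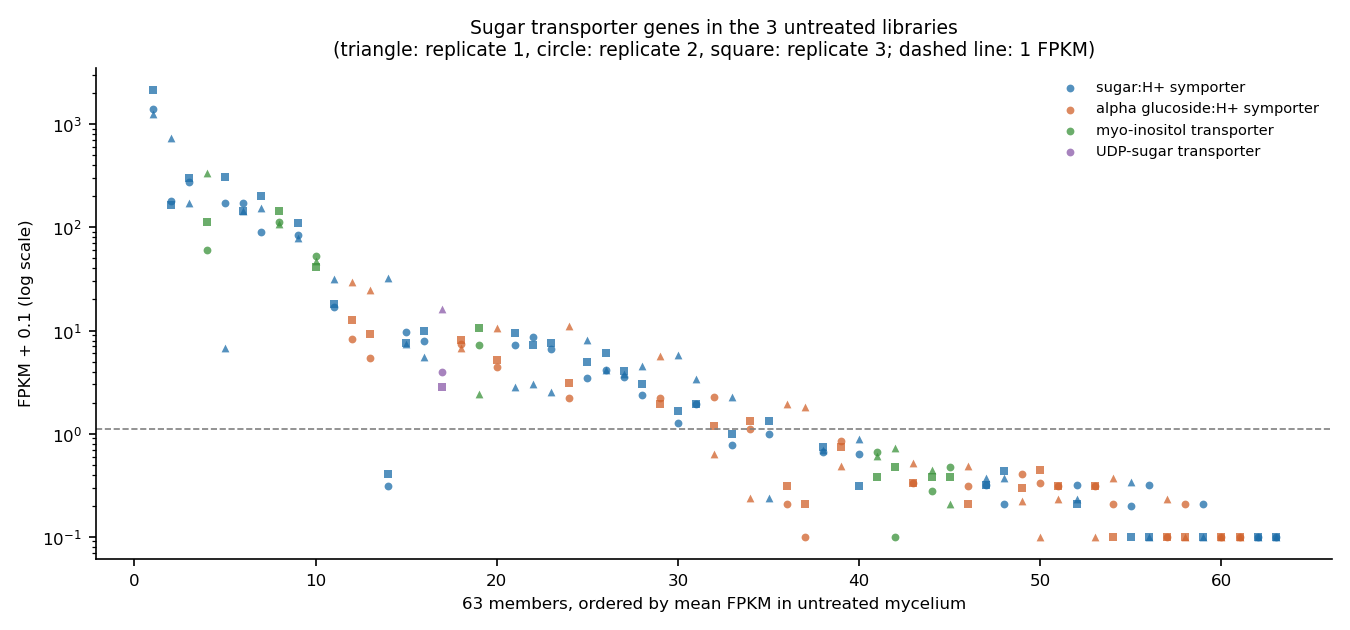
FPKM + 0.1 on a log axis of the 63 members in the 3 untreated libraries, ordered by mean control level, with colour for the KEGG class and marker shape for the replicate. The highest member lies above 1000 FPKM in all 3 libraries, 30 members have a mean under 1 FPKM, and 2 members between the higher ones show replicate 1 far from the other replicates (jgi_Trias1_26261 below, jgi_Trias1_160507 above).

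The most abundant member was jgi_Trias1_133519, a sugar:H+ symporter, with 1255, 1420 and 2134 FPKM in control replicates 1 to 3. It held between 38.4% and 56.1% of the summed FPKM of the 63 members in the control libraries. The next members by mean control level were 4 sugar:H+ symporters and 1 myo-inositol transporter whose controls did not keep one order. jgi_Trias1_148106 had 737, 179 and 163 FPKM, jgi_Trias1_153121 had 174, 275 and 301, and the myo-inositol transporter jgi_Trias1_24747 had 335, 60.0 and 114. jgi_Trias1_26261 had 6.74, 173 and 307 FPKM and jgi_Trias1_126804 had 144, 173 and 143. In the first and the third of these replicate 1 was the highest control, and in jgi_Trias1_153121 and jgi_Trias1_26261 it was the lowest, so the order of these 5 is not fixed beyond the spread of the controls. jgi_Trias1_203712 (sugar:H+, 149 ± 55.8 FPKM, SD, n = 3), jgi_Trias1_24351 (myo-inositol, 121 ± 19.5), jgi_Trias1_141373 (sugar:H+, 91.3 ± 17.2) and jgi_Trias1_191901 (myo-inositol, 46.9 ± 5.36) followed. The first 10 members of each library held between 90.3% and 96.2% of its summed member FPKM.

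The summed FPKM of the 63 members was lower in the treated groups, and jgi_Trias1_133519 took the largest share of it, with means of 1603 FPKM in the control and 528 at 1000 μg/mL. The sums were 3270, 2744 and 3802 in the controls, 2659, 2036 and 2403 at 100 μg/mL, 2081, 1764 and 1908 at 500 μg/mL, and 1733, 2279 and 1727 at 1000 μg/mL. All treated libraries lay below the lowest control, and the groups at 500 and 1000 μg/mL overlapped. The class sums went different ways. The sugar:H+ symporters summed to 2861 ± 514 FPKM (SD, n = 3) in the control, 2130 ± 290 at 100 μg/mL, 1652 ± 145 at 500 μg/mL and 1494 ± 232 at 1000 μg/mL. The alpha glucoside symporters summed to 57.6 ± 31.7 FPKM in the control, 46.6 ± 5.41 at 100 μg/mL, 56.2 ± 2.78 at 500 μg/mL and 160 ± 24.0 at 1000 μg/mL. The myo-inositol transporters summed to 346 ± 133 FPKM in the control, 181 ± 22.2 at 100 μg/mL, 198 ± 29.6 at 500 μg/mL and 254 ± 64.3 at 1000 μg/mL. Over control replicates 2 and 3 alone the control means were 2958 FPKM for the sugar:H+ symporters, 39.5 for the alpha glucoside symporters and 272 for the myo-inositol transporters. The last of these is close to the mean at 1000 μg/mL. Single members weighed heavily in the class sums. Between the control and 1000 μg/mL the mean of jgi_Trias1_138828, an alpha glucoside symporter, went from 6.57 to 115 FPKM. That of the myo-inositol transporter jgi_Trias1_24747 went from 170 to 18.8 FPKM. These class sums therefore do not give the direction of the other members of the class. The sums are descriptions and were not tested.

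**Figure D2:**
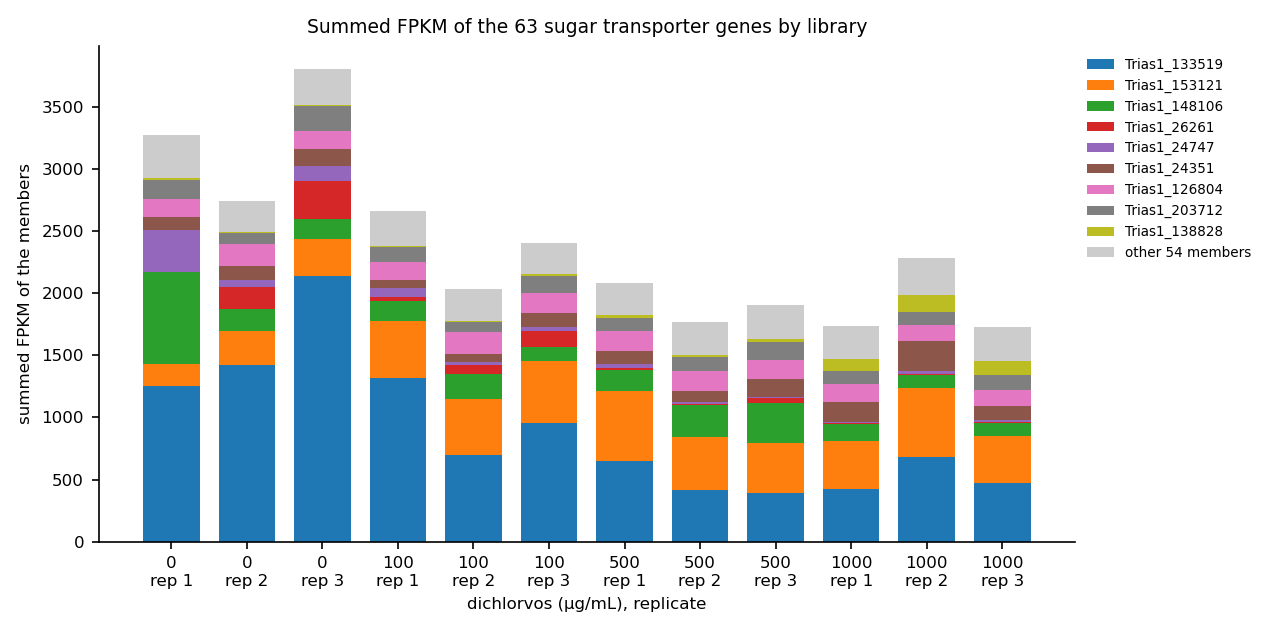
Stacked bars of the summed FPKM of the 63 members in each of the 12 libraries, with 9 members in colour and the other 54 in grey. The sums lie between 2744 and 3802 in the controls and between 1727 and 2279 at 1000 μg/mL, and the block of jgi_Trias1_133519 falls from 48.8% to 27.3% of the sum on average while that of jgi_Trias1_153121 goes from 7.74% to 22.6%.

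Differences were tested with limma on log2(FPKM + 1), and a call needed an adjusted p (Benjamini-Hochberg, over all 8916 tested genes) under 0.05 together with an absolute log2 fold change above 1. Standard errors (SE) are those of the log2 fold change. Fold changes on this scale understate the change of low genes. A mean of at least 1 FPKM over the 12 libraries was required, which 34 of the 63 members and 76.6% of all genes passed. The filter uses all libraries, so a member that is high in 1 group only can pass through that group and then had to differ. This was so for 3 members, whose mean over the other 9 libraries was under the limit. jgi_Trias1_39190 passed through the 1000 μg/mL group (0.82 FPKM in the others), and jgi_Trias1_72398 (0.988) and jgi_Trias1_160507 (0.334) passed through the control. The first 2 are among the calls counted below. The nearest members to the threshold were jgi_Trias1_180090 at 1.22 FPKM and jgi_Trias1_139533 at 0.982 FPKM. The other 29 members were not tested.

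At 1000 μg/mL, 4 of the 34 tested members were called higher than the control and 6 lower over the 12 libraries. Over all tested genes 19.2% were called higher and 7.81% lower. Without control replicate 1 the members called were 4 higher and 4 lower, against 25.9% and 7.68% of all tested genes, and 3 of the higher and 4 of the lower were called in both sets. The median log2 fold change of the 34 members was -0.07 over 12 libraries and 0.10 over 11, against 0.18 and 0.37 over all tested genes. The 3 libraries at 1000 μg/mL lay all above the controls in 6 members and all below in 8, against 26.5% and 17.2% of all tested genes. With the libraries centred on their medians 2 members were called higher over 12 libraries (14.3% of all tested genes) and 7 lower (12.5%). Over 11 libraries 2 were higher and 9 lower, against 14.7% and 17.0%.

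On the log2(FPKM + 1) scale the largest rise was that of jgi_Trias1_138828, a general alpha glucoside:H+ symporter, of the class that in yeast takes up maltose and similar disaccharides. It had 10.4, 4.32 and 5.02 FPKM in the controls, 5.44, 5.37 and 9.55 at 100 μg/mL, 17.8, 14.7 and 23.3 at 500 μg/mL, and 98.5, 134 and 112 at 1000 μg/mL. The groups at 500 and 1000 μg/mL lay above all controls and did not overlap each other, while the group at 100 μg/mL lay within the range of the controls. Its mean at 1000 μg/mL was 17.5 times that of the 3 controls and 24.6 times that of control replicates 2 and 3. The log2 fold change at 1000 μg/mL was 4.01 (SE 0.32, adjusted p = 1.17e-06, limma) over 12 libraries and 4.34 (SE 0.26, adjusted p = 6.16e-08) over 11. The value at the middle dose, 500 μg/mL, was 1.43 (adjusted p = 0.00765, limma) over 12 and 1.77 (adjusted p = 0.00025) over 11. This member went from the 20th place by mean FPKM among the members in the control to the 6th at 1000 μg/mL. The rise of its mean, from 6.57 to 115 FPKM, stands beside that of the alpha glucoside sum, from 57.6 to 160 FPKM.

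By ratio of mean FPKM at 1000 μg/mL, jgi_Trias1_39190 rose by as much (18.3 times against 17.5). It is annotated as a myo-inositol transporter and was near 0 without dichlorvos. Its FPKM were 0.51, 0.56 and 0.28 in the controls, 0.41, 0.14 and 0.14 at 100 μg/mL, 1.67, 1.53 and 2.14 at 500 μg/mL, and 6.83, 8.65 and 9.27 at 1000 μg/mL. Both higher doses lay above all controls and apart from each other. At 1000 μg/mL the log2 fold change was 2.67 (SE 0.24, adjusted p = 2.82e-06, limma) over 12 libraries and 2.70 (adjusted p = 3.3e-06) over 11. Since it passed the filter through this group, the test with no filter is given too, with 2.67 (adjusted p = 2.16e-06, limma). The size on the log scale depends on the pseudocount. At 500 μg/mL its value of 0.94 (adjusted p = 0.0143, limma) stayed under the fold-change threshold.

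Other rises were smaller. jgi_Trias1_200594, a sugar:H+ symporter, had 7.93, 3.37 and 4.85 FPKM in the controls, 10.4, 10.3 and 6.42 at 100 μg/mL, 10.6, 13.2 and 12.7 at 500 μg/mL, and 14.5, 10.8 and 11.5 at 1000 μg/mL. Over 12 libraries it stood 1.10 above the control on the log2 scale (adjusted p = 0.0196, limma) in the 500 μg/mL group and 1.11 (adjusted p = 0.0109) in the 1000 μg/mL group, and over 11 the values were 1.37 and 1.38. It was already level from 500 μg/mL on. With median centring its value at 1000 μg/mL was 0.85 and not called. jgi_Trias1_61252, a myo-inositol transporter, had 2.32, 7.19 and 10.5 FPKM in the controls and 14.9, 16.3 and 22.2 at 1000 μg/mL. The difference on the log2 scale was 1.45 (adjusted p = 0.0127, limma) over 12 libraries and 0.93 (adjusted p = 0.0108) over 11, where it was not called because of its size, and it also lost its call with median centring (1.19). Here control replicate 1 was the lowest library of all.

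**Figure D3:**
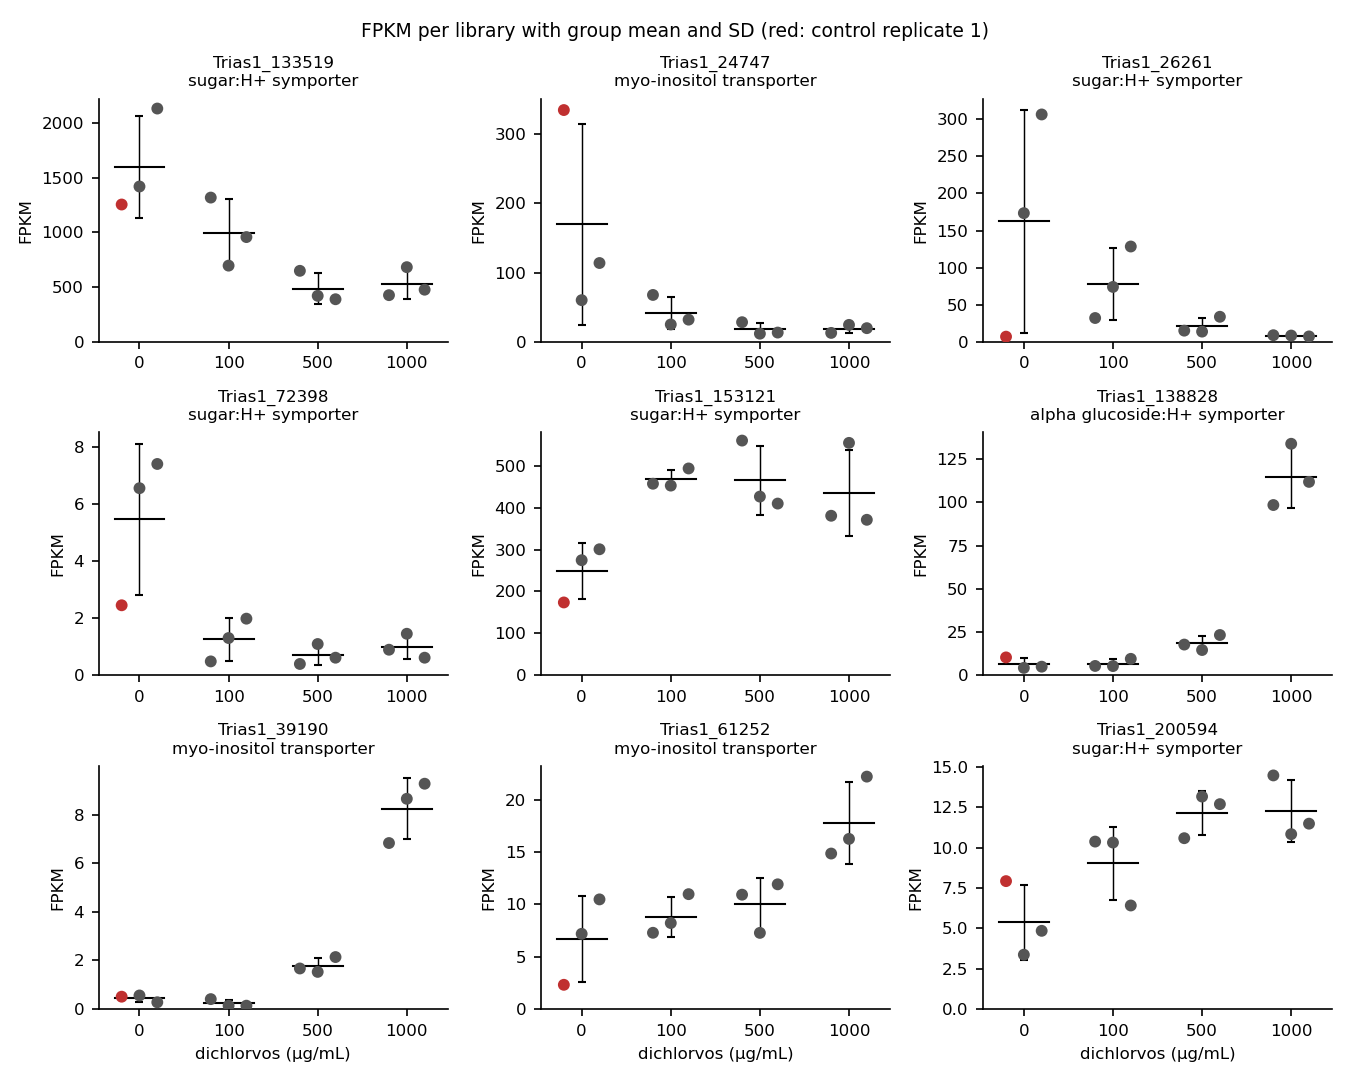
FPKM of 9 members in each library by dose (points), with the group mean (line) and SD (bars, n = 3) and control replicate 1 in red, each panel on its own axis from 0. jgi_Trias1_133519, jgi_Trias1_24747, jgi_Trias1_26261 and jgi_Trias1_72398 are low at 500 and 1000 μg/mL, jgi_Trias1_138828 and jgi_Trias1_39190 are highest at 1000 μg/mL, and jgi_Trias1_153121 is already at its upper level at 100 μg/mL.

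Among the members called lower was the most abundant one. jgi_Trias1_133519 had 1319, 696 and 957 FPKM at 100 μg/mL, 648, 419 and 388 at 500 μg/mL, and 426, 682 and 476 at 1000 μg/mL. All libraries at 500 and 1000 μg/mL lay below all controls, and these 2 groups overlapped. Over 12 libraries the log2 fold change was -1.72 (SE 0.30, adjusted p = 0.00167, limma) for 500 μg/mL and -1.59 (SE 0.30, adjusted p = 0.00128) for 1000 μg/mL. Over 11 the values were -1.88 and -1.75. The value for 100 μg/mL was -0.70 (adjusted p = 0.231) over 12 and -0.86 (adjusted p = 0.0768) over 11, and not called. The mean control level was 3.04 times that at 1000 μg/mL.

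jgi_Trias1_24747, of the myo-inositol class, was also called lower at the 2 higher doses in both sets. It had 67.6, 24.8 and 31.8 FPKM at 100 μg/mL, 28.1, 11.5 and 13.1 at 500 μg/mL, and 12.7, 24.3 and 19.5 at 1000 μg/mL. The lowest control, at 60.0 FPKM, lay above all libraries at 500 and 1000 μg/mL and overlapped the group at 100 μg/mL. The log2 fold change at 1000 μg/mL was -2.79 (SE 0.56, adjusted p = 0.0019, limma) over 12 libraries and -2.12 (SE 0.46, adjusted p = 0.00185) over 11. The values at 500 μg/mL were -2.95 and -2.28. The 2 myo-inositol transporters jgi_Trias1_24747 and jgi_Trias1_39190 therefore went in opposite directions.

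jgi_Trias1_72398, a sugar:H+ symporter at a low level, was the only member called at 100 μg/mL over 12 libraries. It had 2.46, 6.57 and 7.42 FPKM in the controls, 0.49, 1.31 and 1.99 at 100 μg/mL, 0.40, 1.10 and 0.62 at 500 μg/mL, and 0.90, 1.46 and 0.62 at 1000 μg/mL. All 9 treated libraries lay below all controls and the doses overlapped each other. Its log2 fold changes at 100, 500 and 1000 μg/mL were -1.47, -1.84 and -1.62 (adjusted p = 0.0368, 0.00442 and 0.00475, limma) over 12 libraries and -1.88, -2.25 and -2.02 over 11. With no filter the adjusted p at the 3 doses was 0.0451, 0.00582 and 0.00585 by limma. The call at 100 μg/mL rests on a p near the threshold. It was lost in 9 of the 12 fits that left out 1 library, and in several of the other alternatives. The NOISeq rule of the study's methods, as rewritten here, did not call this member at any dose.

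The steepest fall without control replicate 1 was that of jgi_Trias1_26261, a sugar:H+ symporter. It had 31.9, 73.9 and 128 FPKM at 100 μg/mL, 14.8, 13.6 and 33.6 at 500 μg/mL, and 8.69, 8.22 and 7.04 at 1000 μg/mL. Control replicates 2 and 3, at 173 and 307 FPKM, lay above all treated libraries, whereas control replicate 1, at 6.74 FPKM, lay below all of them. The log2 fold change at 1000 μg/mL was -3.06 (SE 1.03, adjusted p = 0.0336, limma) over 12 libraries and -4.69 (SE 0.49, adjusted p = 8.34e-06) over 11. The call over 12 was lost without control replicate 2 (-2.45), without control replicate 3 (-2.04) or without any one library at 1000 μg/mL. Over 11 libraries it was also called at 100 μg/mL (-1.76) and 500 μg/mL (-3.54), where over 12 it was -0.13 and -1.90 and not called.

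The calls of jgi_Trias1_148106 and jgi_Trias1_154291 at 1000 μg/mL were lost without control replicate 1. jgi_Trias1_148106, a sugar:H+ symporter, had 162, 198 and 113 FPKM at 100 μg/mL, 175, 250 and 321 at 500 μg/mL, and 139, 101 and 107 at 1000 μg/mL. Its log2 fold change was -1.27 (adjusted p = 0.0495, limma) over 12 libraries and -0.57 (adjusted p = 0.0881) over 11. jgi_Trias1_154291, an alpha glucoside symporter, had 29.5, 8.13 and 12.5 FPKM in the controls and 6.09, 5.57 and 7.30 at 1000 μg/mL, with -1.09 (adjusted p = 0.0357, limma) over 12 and -0.61 (adjusted p = 0.0542) over 11. With median centring the values over 11 libraries were -1.05 and -1.09, and both were then called. In the opposite way, the alpha glucoside symporter jgi_Trias1_92685 was called higher at 1000 μg/mL only over 11 libraries, with 1.05 (adjusted p = 0.00929, limma) against 0.49 (adjusted p = 0.398) over 12. Its controls were 24.7, 5.32 and 9.16 FPKM and its libraries at 1000 μg/mL 11.8, 21.5 and 15.0. jgi_Trias1_160507, chosen after its values were seen, had 32.0 FPKM in control replicate 1 and between 0 and 0.64 in the other 11 libraries. Beyond control replicate 1, no library of any group showed this sugar:H+ symporter at 1 FPKM.

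At 500 μg/mL, 2 members were called higher and 3 lower over 12 libraries, against 10.6% and 3.48% of all tested genes. They were jgi_Trias1_138828 and jgi_Trias1_200594 among the higher, and jgi_Trias1_133519, jgi_Trias1_24747 and jgi_Trias1_72398 among the lower. Over 11 libraries the counts were 4 and 4, against 16.8% and 4.31% of all tested genes, and all 5 calls over 12 libraries were among them. The added calls were jgi_Trias1_26261, the alpha glucoside symporter jgi_Trias1_32017 (1.27, adjusted p = 0.021, limma) and the UDP-sugar transporter jgi_Trias1_59782 (1.49, adjusted p = 0.00656). The last had 16.2 FPKM in control replicate 1, 3.88 and 2.73 in the other controls, and 10.8, 14.1 and 8.65 at 500 μg/mL. The median log2 fold change of the members was -0.20 over 12 libraries and -0.03 over 11, against 0.10 and 0.28 over all tested genes. Median centring gave 1 higher and 4 lower over 12 libraries, against 8.15% and 5.74% of all tested genes, and 2 and 8 over 11, against 8.88% and 11.2%. The 3 libraries lay all above the controls in 5 members and all below in 7, against 19.4% and 12.5% of all tested genes.

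At 100 μg/mL limma called 0 of the 34 members higher and 1 lower over 12 libraries, against 4.60% and 0.538% of all tested genes. An unadjusted p under 0.05 was found for 3 higher members (12.3% of all tested genes) and 6 lower ones (6.11%). The NOISeq rule named in the study's methods, rewritten here, called 0 higher and 1 lower, against 0.527% and 0.134% of the genes it covered. Its 1 lower member was jgi_Trias1_24747 and not jgi_Trias1_72398. Without control replicate 1 the rule called jgi_Trias1_26261 lower instead, among 36 of all genes. With the replicate number as a block in the fit limma called 2 lower, jgi_Trias1_72398 and jgi_Trias1_24747 (-1.78, adjusted p = 0.0438). The share of all tested genes with the block was not taken. Over 11 libraries limma called 1 higher and 2 lower, against 7.67% and 1.05% of all tested genes. The higher one was the alpha glucoside symporter jgi_Trias1_142304, with 4.89, 6.07 and 6.75 FPKM at 100 μg/mL and 5.52, 2.12 and 1.82 in the controls. Its log2 fold change was 1.21 (adjusted p = 0.00334, limma) over 11 libraries and 0.83 (adjusted p = 0.16) over 12. The median of the members at 100 μg/mL was -0.10 over 12 libraries and -0.04 over 11, against 0.02 and 0.20 over all tested genes. Median centring gave 0 higher and 1 lower over 12 libraries, against 4.13% and 1.20% of all tested genes, and 0 and 6 over 11, against 4.55% and 3.06%. The 1 lower over 12 libraries was jgi_Trias1_24747 (-1.85, adjusted p = 0.0277, limma) and not jgi_Trias1_72398. The 3 libraries of the lowest dose were all above those of the control in jgi_Trias1_153121 and jgi_Trias1_180090, and below in 4 members, against 12.5% and 7.73% of all tested genes.

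**Figure D4:**
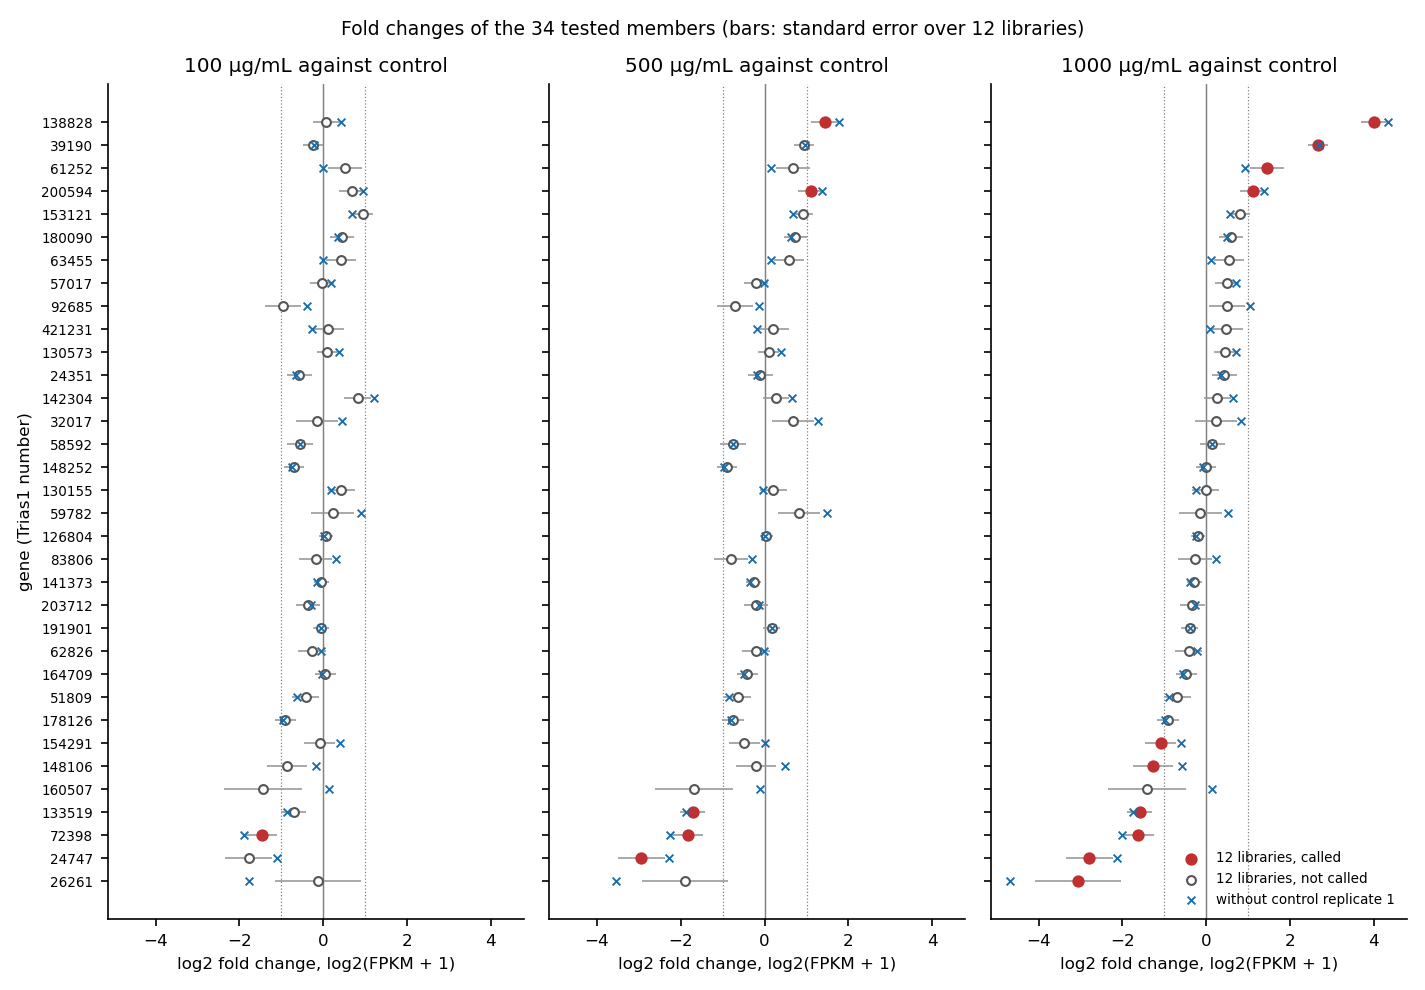
Log2 fold changes of the 34 tested members at 100, 500 and 1000 μg/mL against the control, from log2(FPKM + 1), ordered by the value at 1000 μg/mL. Filled points were called over 12 libraries, open points were not, grey bars are standard errors and crosses are values without control replicate 1. The calls number 1, 5 and 10 from the lowest to the highest dose, and the crosses lie far from the points in jgi_Trias1_26261 and jgi_Trias1_160507.

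Some abundant members differed from the control by less than 2-fold at every dose. jgi_Trias1_153121 had 457, 453 and 493 FPKM at 100 μg/mL, 560, 426 and 410 at 500 μg/mL, and 381, 554 and 371 at 1000 μg/mL. Each of the 9 treated libraries lay above the highest control at 301 FPKM, and the doses overlapped each other. Its log2 fold changes were 0.94, 0.92 and 0.81 (adjusted p = 0.0341, 0.0158 and 0.0171, limma) over 12 libraries and 0.70, 0.68 and 0.57 (adjusted p = 0.0296, 0.0155 and 0.0256) over 11, under the fold-change threshold throughout. With median centring the value at 1000 μg/mL was 0.55 over 12 libraries and 0.09 over 11. In 2 libraries at 500 μg/mL it was the most abundant member, in place of jgi_Trias1_133519. At 1000 μg/mL the log2 fold changes of jgi_Trias1_126804, jgi_Trias1_203712, jgi_Trias1_141373 and jgi_Trias1_191901 lay between -0.39 and -0.20 (SE 0.16 to 0.29) over 12 libraries, and none was called. With median centring and without control replicate 1 they lay between -0.87 and -0.72. A pair of low members with values under the threshold, chosen after their values were seen, had libraries apart from the controls, the first at every dose and the second at 100 and 500 μg/mL. The sugar:H+ symporter jgi_Trias1_178126 had 7.37 to 9.67 FPKM in the controls and 2.66 to 5.10 in the 9 treated libraries. The alpha glucoside symporter jgi_Trias1_148252 had 7.30 ± 0.693 FPKM (SD, n = 3) in the control, 4.17 ± 0.883 at 100 μg/mL, 3.47 ± 0.75 at 500 μg/mL and 7.23 ± 0.602 at 1000 μg/mL. With median centring limma called jgi_Trias1_178126 lower at 1000 μg/mL (-1.18, adjusted p = 0.00399) and jgi_Trias1_148252 lower at 500 μg/mL (-1.07, adjusted p = 0.0152). With a pseudocount of 0.1 it also called both lower at these doses (-1.08, adjusted p = 0.0175, and -1.07, adjusted p = 0.0212).

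Whether members followed the dose was asked in 2 ways, by comparing the doses with each other, which uses no control library in the difference, and by a linear trend over the 4 groups. From 100 to 500 μg/mL limma called 2 members higher and 0 lower, against 1.92% and 0.258% of all tested genes. From 500 to 1000 μg/mL it called 2 higher and 0 lower, against 5.42% and 2.12%. In both steps the higher ones were jgi_Trias1_138828 (1.35, adjusted p = 0.0492, and 2.57, adjusted p = 0.000433,, limma) and jgi_Trias1_39190 (1.18, adjusted p = 0.0199, and 1.73, adjusted p = 0.000792). The call of jgi_Trias1_138828 in the first step was lost in 9 of the 12 fits that left out 1 library, and that of jgi_Trias1_39190 in 5, all of them without a library of the groups compared. Their calls in the second step held in all 12. At an unadjusted p under 0.05, 1 member was lower in the first step and 2 in the second, against 4.69% and 8.58% of all tested genes. The NOISeq rule called 2 and 1 lower, against 0.283% and 1.07% of the genes it covered. Over the 11 libraries without control replicate 1, limma called jgi_Trias1_133519 (-1.02, adjusted p = 0.0378) and jgi_Trias1_26261 (-1.77, adjusted p = 0.0264) lower in the first step. Of all 8916 tested genes 92 were. In the second step it then called jgi_Trias1_148106 lower (-1.07, adjusted p = 0.00746) and added jgi_Trias1_92685 as higher (1.19, adjusted p = 0.0068). Over all tested genes 297 were lower and 626 higher.

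Between 100 and 1000 μg/mL limma called 4 members higher and 0 lower, against 13.0% and 5.48% of all tested genes. At an unadjusted p under 0.05, 3 were lower, against 13.5%, and the NOISeq rule called 1 lower, against 2.13%. The 4 were jgi_Trias1_138828 (3.92, SE 0.32), jgi_Trias1_39190 (2.91, SE 0.24), jgi_Trias1_92685 (1.45, SE 0.43) and jgi_Trias1_24351 (just past the threshold, SE 0.30, with a ratio of mean FPKM of 2.04), with adjusted p between 3.08e-06 and 0.0276 by limma. jgi_Trias1_92685 had 5.28, 4.01 and 6.23 FPKM at 100 μg/mL and 6.38, 5.08 and 7.55 at 500 μg/mL, all below the 3 libraries at 1000 μg/mL. jgi_Trias1_24351, the most abundant of the myo-inositol class at every dose, had 65.5, 68.2 and 117 FPKM at 100 μg/mL, 109, 88.8 and 145 at 500 μg/mL, and 155, 241 and 115 at 1000 μg/mL, and these groups overlapped. Leaving out control replicate 1 changes the estimate of the spread, and jgi_Trias1_26261 (-2.93, adjusted p = 0.000225, limma) and jgi_Trias1_154291 (-1.02, adjusted p = 0.00284) were then called lower. With median centring over 12 libraries 3 members were called higher and 2 lower, against 9.76% and 7.97% of all tested genes. The replicate block also gave a call for jgi_Trias1_26261 (-2.93, adjusted p = 0.0212, limma). Leaving out 1 library at a time, the calls of jgi_Trias1_92685 and jgi_Trias1_24351 were each lost in 4 of the 12 fits, all without a library of the 2 doses compared, and those of jgi_Trias1_138828 and jgi_Trias1_39190 in 0.

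By the trend, a member rose with the dose where its linear contrast and its difference between 100 and 1000 μg/mL both had an adjusted p under 0.05 and its 4 group means stood in the order of the dose. Over 12 libraries 1 member rose, jgi_Trias1_138828, and 0 fell, against 10.6% and 3.63% of all tested genes. Its means in the control and at 100 μg/mL were 6.57 and 6.79 FPKM, and the call as rising with the dose was lost without control replicate 2, without control replicate 3 or without replicate 3 at 100 μg/mL. With the replicate block 1 member fell, jgi_Trias1_26261, and the share of all tested genes in that fit was not taken. Over 11 libraries 2 rose, with jgi_Trias1_61252 added, and 1 fell, jgi_Trias1_26261, against 18.9% and 7.18%. jgi_Trias1_39190 was not counted because its mean at 100 μg/mL lay below that of the control. By the moderated F-test of limma, 9 of the 34 members differed among the 4 groups over 12 libraries and 17 over 11, against 34.0% and 56.9% of all tested genes.

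Among the 29 members that did not pass the filter, 2 rose with the dose when all genes were tested with no filter. The share of all genes that rose in that fit was not counted, and with the filter it was 10.6%. The 2 members are therefore a description and do not set the family apart. They are jgi_Trias1_139533 (myo-inositol class) and jgi_Trias1_142670 (alpha glucoside class), and both were chosen after their values were seen. jgi_Trias1_139533 had 0.34, 0.18 and 0.28 FPKM in the controls, 0.36, 0.37 and 0.73 at 100 μg/mL, 0.92, 1.38 and 0.75 at 500 μg/mL, and 2.21, 3.04 and 1.22 at 1000 μg/mL, with a log2 fold change of 1.28 (adjusted p = 0.00121, limma) at 1000 μg/mL. jgi_Trias1_142670 had 0.39, 0.21 and 0.11 FPKM in the controls and 1.71, 1.88 and 1.20 at 1000 μg/mL, with 1.07 (adjusted p = 0.00101).

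Other genes of sugar use, listed by words in their first KEGG entry, are given beside these transporters. The list held 95 genes, of which 64 were tested. Their entries named sugar kinases, phosphoglucomutase, aldose 1-epimerase, xylose and xylulose reductases, glycosidases, trehalases, and the kinase of carbon catabolite derepression. By its words the list also took in 17 glucan 1,3-beta-glucosidases, 14 glucan endo-1,3-alpha-glucosidases and 2 SUN family beta-glucosidases. The counts below therefore mix glucan-splitting enzymes with those that act on free sugars. At 1000 μg/mL 13 were called higher and 7 lower over 12 libraries, and 18 and 10 over 11. The shares of all tested genes were 19.2% and 7.81% over 12, and 25.9% and 7.68% over 11. Their median log2 fold change was 0.04 over 12 libraries and 0.15 over 11, against 0.18 and 0.37 over all tested genes. Of 4 hexokinase genes, whose enzymes phosphorylate hexoses after uptake, 1 was called lower over 12 libraries, and over 11 another was also called higher. The latter, jgi_Trias1_59987, had 19.2, 5.26 and 5.22 FPKM in the controls and 13.4, 16.1 and 16.2 at 1000 μg/mL (1.38, adjusted p = 4.69e-05 by limma over 11, and 0.81, adjusted p = 0.113, over 12). jgi_Trias1_132127 had 212, 804 and 828 FPKM in the controls, 656, 695 and 692 at 100 μg/mL, 481, 292 and 221 at 500 μg/mL, and 173, 218 and 168 at 1000 μg/mL. The log2 difference between the highest dose and the control was -1.49 (adjusted p = 0.0179, limma) over 12 libraries and -2.13 (adjusted p = 2.24e-05) over 11, and control replicate 1 again stood apart, within the range of the highest dose.

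Of 4 tested trehalase genes, whose enzymes split the storage sugar trehalose into glucose, 2 were called lower and 1 higher over 12 libraries, and 2 lower and 2 higher over 11. jgi_Trias1_54598 was called higher in both (1.30 and 1.49) and jgi_Trias1_213998 only over 11 (1.33, adjusted p = 0.000137 by limma, against 0.44, adjusted p = 0.57). The lower ones were jgi_Trias1_63393 (-2.06 and -2.93) and jgi_Trias1_31193. jgi_Trias1_31193 had 140, 89.1 and 79.7 FPKM in the controls, 73.5 to 231 at 100 and 500 μg/mL, and 8.71, 1.92 and 3.72 at 1000 μg/mL, with a log2 fold change of -4.30 (adjusted p = 1.71e-05, limma) over 12 libraries and -4.06 over 11. The groups at the lower doses overlapped the controls and the group at 1000 μg/mL did not. The gene jgi_Trias1_183082, annotated as the carbon catabolite-derepressing protein kinase (Snf1 in yeast, which acts when glucose is scarce), had 34.1, 17.7 and 20.4 FPKM in the controls, 29.1, 25.5 and 29.1 at 100 μg/mL, 49.5, 41.0 and 37.3 at 500 μg/mL, and 51.2, 66.0 and 67.4 at 1000 μg/mL. The log2 difference between the highest dose and the control was 1.36 (adjusted p = 0.000853, limma) over 12 libraries and 1.63 (adjusted p = 1.25e-05) over 11, and this gene rose with the dose by the rule above. The other of the 2 genes with this entry lay below all controls at 500 and 1000 μg/mL. It was not called at 1000 μg/mL in either set.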

How the data were processed

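Transcripts were measured by RNA-seq in 12 libraries, 3 per group. The authors deposited FPKM values, already scaled to gene length and library size, per library and without pooling, for 11647 genes named after Trias1, the JGI genome. The submitters' processing notes name BWA, Bowtie and RSEM, with no role or version. Libraries were assigned by their labels, and 0 value columns were left unassigned. FPKM hold no counts, so no counting interval was given, and precision is limited by 3 libraries per group. Identifiers were used as deposited, and 0 matched the RefSeq gene list at hand (assembly ASM2064786v1), so no protein or promoter sequence is shown.

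Genes averaging at least 1 FPKM (8916) were transformed to log2(FPKM + 1) and fitted with limma 3.58.1 (R 4.3.3), all 4 groups together, with the variance trend on. p-values were adjusted over all tested genes. Trend weights were -3, -1, 1 and 3. The fit was tested on simulated data. The study's NOISeq rule (probability above 0.8 and absolute log2 ratio above 1, with 0 replaced by 0.01) was rewritten in Python 3.11.15 and used as an alternative. Over 12 libraries it called fewer genes at each dose than the study reported. Without control replicate 1 its counts came close to the reported ones. It then called 204, 489 and 871 genes higher at 100, 500 and 1000 μg/mL, and 36, 176 and 383 lower. The reason was not tested. Alternatives also covered the pseudocount, the filter, the scaling, the samples fitted and each library left out.

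Members, lists and tests were chosen with earlier results of these data known. Members named were the 10 highest in the control, up to 10 called higher and 10 lower at 1000 μg/mL and up to 5 each at the other doses, up to 5 each that rose or fell with the dose, and any in a count of 5 or fewer. Names outside the rule are marked in the text, and jgi_Trias1_130573, jgi_Trias1_49913 and the genes outside the family were chosen after their values were seen. A list of spore-formation genes, sought by the words conidiation and conidial, found 0 genes.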

Additional observations from a re-analysis of the deposited data

How the results depend on the processing

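Leaving out 1 library at a time gave 0 to 1 members higher and 0 to 2 lower at 100 μg/mL, 2 to 4 higher and 3 to 5 lower at 500 μg/mL, and 3 to 4 higher and 3 to 5 lower at 1000 μg/mL. Between doses it gave 0 to 2 higher and 0 to 2 lower from 100 to 500 μg/mL, 2 to 3 and 0 to 1 from 500 to 1000 μg/mL, and 2 to 4 and 0 to 2 from 100 to 1000 μg/mL. With the dose 0 to 2 members rose and 0 to 1 fell, and 7 to 17 differed among the groups, the highest without control replicate 1.

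In the order higher and lower, and without the counts that stayed within 1.5 times, the other alternatives gave these values. At 100 μg/mL the lower members were 0 with a pseudocount of 0.1, with a mean of at least 5 FPKM or with 2 groups fitted alone, and 6 with median centring without control replicate 1. At 500 μg/mL the higher were 1 with median centring and 0 with 2 groups alone or by the NOISeq rule with or without control replicate 1, and the lower were 8 with median centring without control replicate 1. At 1000 μg/mL the higher were 2 with median centring, with that and without control replicate 1, or with 2 groups alone, and 1 by the NOISeq rule with or without that library. The lower were 3 with no filter, with 2 groups alone, or by the NOISeq rule without control replicate 1. From 100 to 500 μg/mL the higher were 1 with a pseudocount of 0.1, with no filter, with a mean of at least 5 FPKM, rescaled to TPM or with no trend, and 0 by the NOISeq rule, and the lower were 2 by that rule or with median centring without control replicate 1. From 500 to 1000 μg/mL the higher were 1 with a mean of at least 5 FPKM or by the NOISeq rule, and the lower were 2 with 2 groups alone or with median centring without control replicate 1, and 1 by the rule. From 100 to 1000 μg/mL the higher were 1 by the NOISeq rule, and the lower were 2 with median centring, 4 with that and without control replicate 1, 3 with 2 groups alone and 1 by the rule. With no filter 3 members rose with the dose. With median centring 1 member fell with the dose, and 4 without control replicate 1 as well, where 20 differed among the groups. The shares of all tested genes for these counts were not taken, so the counts do not set the members apart. Without control replicate 1 and with no centring, 56.9% of all tested genes differed among the groups. At 5 FPKM in each control library 16 members were on. The causes were not tested, apart from the smaller set of genes or samples in some. Median centring moved the median log2 fold change of all tested genes at 1000 μg/mL from 0.18 to -0.08, and from 0.37 to -0.11 without control replicate 1.

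No label says that a replicate number marks a shared culture or day. The correlations of the deviations of same-numbered libraries lay between 0.166 and 0.495 for the control and 100 μg/mL, where all 3 were over 0.1. In each of the other pairs of groups at least 1 was not, down to -0.319, so whether the numbers pair the libraries is not settled. With the replicate block 2 members were lower at 100 μg/mL, 1 was higher from 100 to 500 μg/mL, 1 was lower from 100 to 1000 μg/mL and 1 fell with the dose. The shares of all tested genes with the block were not taken, so these counts do not set the members apart.

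Over 17 named members and 355 values of the fold change at 1000 μg/mL under the alternatives, 316 kept their side of the threshold, 38 lost the call, 1 gained it and 0 of the called values changed sign. Named members not called at 1000 μg/mL over 12 libraries were counted too. They could only keep their side or gain a call, so all 38 losses fall on the called members. Without 1 library at a time, the range was 3.79 to 4.34 for jgi_Trias1_138828, 2.58 to 2.78 for jgi_Trias1_39190, -1.79 to -1.37 for jgi_Trias1_133519, -3.36 to -2.12 for jgi_Trias1_24747 and -2.02 to -1.38 for jgi_Trias1_72398, all of them called each time. The call of jgi_Trias1_26261 was lost without control replicate 2 or 3 or without any library at 1000 μg/mL (-4.69 to -2.04 over all libraries left out). jgi_Trias1_200594 lost its call without control replicate 2 or replicate 1 at 1000 μg/mL (0.87 to 1.38), and jgi_Trias1_61252 without control replicate 1 or replicate 3 at 1000 μg/mL (0.93 to 1.83). The calls of jgi_Trias1_148106 (-1.66 to -0.57) and jgi_Trias1_154291 (-1.48 to -0.61) were lost in 10 and 5 of the 12.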
